A study of Mus musculus with 4 samples.

Results

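The prostaglandin and leukotriene pathway was followed through 10 genes, chosen by symbol as the genes that release arachidonate, make prostaglandin E2 and leukotrienes from it, and sense prostaglandin E2. They are Pla2g4a, Ptgs1, Ptgs2, Ptges, Ptges2, Ptger2, Ptger4, Alox5, Alox5ap and Ltc4s, 10 of the 21878 genes in the count table, and all 10 were listed and had enough counts to be tested. The measurements came from 4 RNA sequencing libraries of mouse bone marrow-derived macrophages, which are grown from marrow with the macrophage growth factor M-CSF. All macrophages had been cocultured with MC38, a mouse colon adenocarcinoma line, kept on the other side of a porous membrane, and the comparison asked how macrophages with less Act1, the adaptor of the interleukin-17 receptor encoded by Traf3ip2, differ from normal ones. The control group was 2 libraries labelled WT, from C57BL/6 mice aged 8 weeks, after 48 h of coculture by the labels. The other group was 2 libraries labelled anti-Act1, of the same strain, age and coculture, from mice carrying a macrophage-specific knockdown of Act1, and the promoter that drives the knockdown is not given in the sources used here. The study's text differs from the labels here, giving a shorter coculture and a slightly wider range of ages. The replicates of a group are described as biological, and the sources used here do not say how many mice stand behind each library.

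Prostaglandins and leukotrienes are short-lived lipid mediators made from arachidonic acid, which cytosolic phospholipase A2 cuts out of membrane phospholipids. Cyclooxygenases turn it into prostaglandin H2, which terminal synthases convert to prostaglandin E2, prostaglandin D2, prostacyclin or thromboxane, whereas 5-lipoxygenase, helped by its activating protein, opens the branch to leukotriene B4 and the cysteinyl leukotrienes. Macrophages make both kinds of mediator, and prostaglandin E2 acts back on them through the receptors EP2 and EP4, which raise cyclic AMP.

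Each library held between 55435063 and 75062945 counts. The targeted transcript was not lower under the anti-Act1 label. The WT-labelled libraries had 6.98 and 7.54 CPM of Traf3ip2 (counts scaled to a common library total) and the anti-Act1-labelled ones 9.63 and 7.84 CPM. The log2 difference was 0.27 (SE 0.12, edgeR adjusted p = 0.117). These values are RNA counts of unstated strand setting, and they do not measure the Act1 protein. Here and in what follows a log2 difference is the log2 fold change of anti-Act1 over WT fitted by edgeR. Without anti-Act1 replicate 2 the Traf3ip2 value was 0.41 (edgeR adjusted p = 0.0343) and without anti-Act1 replicate 1 it was 0.11 (edgeR adjusted p = 0.723), and the first was the only one of the 12 alternative settings to call it. Summed CPM of the 4 Y-linked genes Ddx3y, Eif2s3y, Uty and Kdm5d were 227.6 and 246 under the WT label but 0.0162 and 0 under the anti-Act1 label. The knockdown and the presence of Y-linked transcripts therefore cannot be told apart in any difference given here. Every direction rests on the labels, and the groups are called WT and anti-Act1 only after them. All 8 macrophage markers looked at were measured and summed to between 24570 and 26254 CPM in each library, mostly from Lyz2, with Cd14 higher and Itgam and Mertk lower in anti-Act1. The 7 tumour epithelial markers summed to between 0.128 and 0.464 CPM. Of these, Krt8, Krt18 and Cldn4 were at 0 in every library, and Cdh1, the one with enough counts to be tested, had 29 and 19 counts in WT and 16 and 4 in anti-Act1 (log2 difference -1.01, edgeR adjusted p = 0.267).

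The cyclooxygenase and prostaglandin E synthase genes known as inducible were higher under the anti-Act1 label, and the constitutive cyclooxygenase gene was lower. Of the 10 genes, 3 rose (Ptges, Ptgs2 and Pla2g4a), 2 fell (Ptgs1 and Alox5ap) and 5 were not called at an edgeR adjusted p under 0.05. Among all 12494 genes tested, 10.9% rose and 9.76% fell, 20.7% in all. The median log2 fold change was 0.08 over the 10 genes and -0.0046 over all genes tested. The groups did not overlap in CPM for 6 of the 10 genes, beside 57.1% of all genes tested, so a lack of overlap by itself was common. In these bulk samples, fewer cells of a type and less RNA per cell cannot be told apart.

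**Figure D1:**
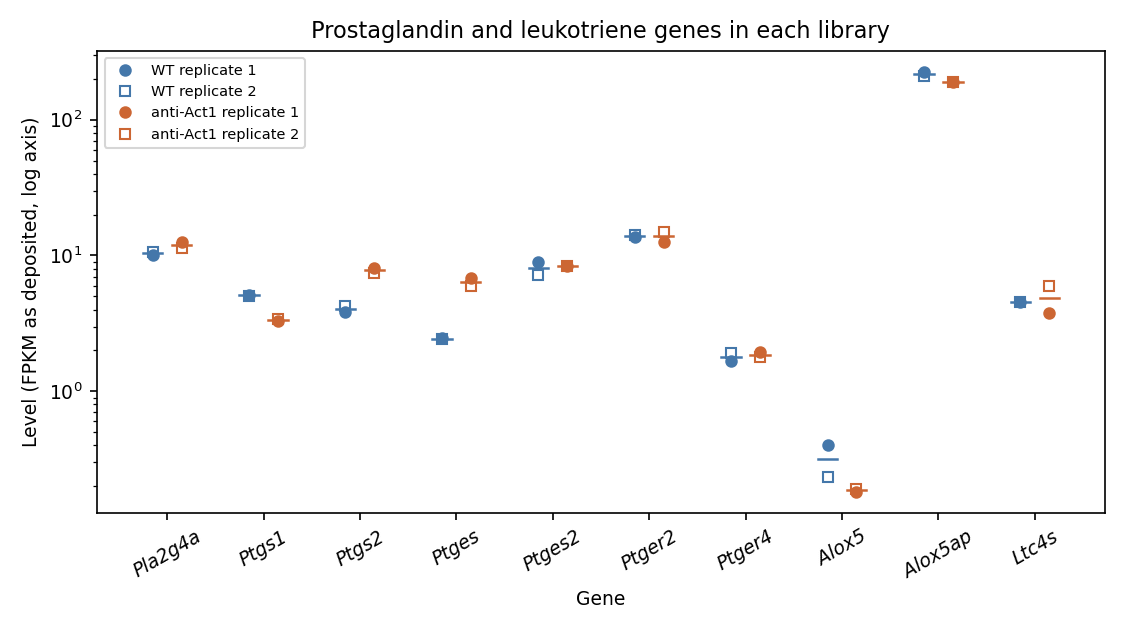
Level of each of the 10 genes in each library, as deposited FPKM on a log axis; circles are replicate 1, squares replicate 2 and bars the group means of 2 libraries, with WT in blue and anti-Act1 in orange. Both anti-Act1 points lie above both WT points for Ptgs2 and Ptges and below them for Ptgs1.

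Ptgs2 and Ptges lie one after the other in the pathway, and the 250 bases upstream of their RefSeq starts (GRCm38.p6) are printed because these genes had the largest rises of the 10, with the same window of Ptgs1, which fell. The Ptgs2 window is chr1:150099781-150100030 on the plus strand, the Ptges window chr2:30903298-30903547 on the minus strand and the Ptgs1 window chr2:36230176-36230425 on the plus strand. Each runs 5′ to 3′ and ends at the base before the start. Capitals mark matches to any of 6 motifs searched on both strands: the NF-kB consensus, the CRE half-site TGACG, the AP-1 site TGANTCA, the GC box GGGCGG, the TATA box TATAAA and the C/EBP site TTNNGNAA.
Ptgs2: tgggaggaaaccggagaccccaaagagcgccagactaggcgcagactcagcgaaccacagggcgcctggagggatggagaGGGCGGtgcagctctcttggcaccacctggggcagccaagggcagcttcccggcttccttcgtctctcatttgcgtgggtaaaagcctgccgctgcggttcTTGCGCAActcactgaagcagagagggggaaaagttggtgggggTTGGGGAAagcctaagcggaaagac
Ptges: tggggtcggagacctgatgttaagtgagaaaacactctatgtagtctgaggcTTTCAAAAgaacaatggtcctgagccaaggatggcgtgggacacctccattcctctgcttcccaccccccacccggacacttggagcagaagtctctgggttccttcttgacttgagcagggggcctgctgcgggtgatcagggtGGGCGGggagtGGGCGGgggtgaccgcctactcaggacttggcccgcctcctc
Ptgs1: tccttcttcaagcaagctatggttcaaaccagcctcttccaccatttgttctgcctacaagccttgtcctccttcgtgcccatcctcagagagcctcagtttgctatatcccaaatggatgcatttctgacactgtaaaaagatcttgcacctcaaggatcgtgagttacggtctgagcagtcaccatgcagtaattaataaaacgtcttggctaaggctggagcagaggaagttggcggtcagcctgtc
Counted back from the start, the capitals in Ptgs2 begin at -170 (GC box), -69 and -25 (C/EBP sites). In Ptges they begin at -198 (C/EBP site), -53 and -42 (GC boxes). The Ptgs1 window held none of these letters. Windows of genes without a call held such matches too, GC boxes in Ptger4 and Alox5 and C/EBP sites in Ptger2 and Ptges2. The starts used for Ptger2 and Ptges2 did not match a transcript start, so their windows may not lie directly upstream of one. The Ltc4s window, also of a gene without a call, held none. No printed match overlapped another, and such matches were common, since 32.7% of the 32851 windows of this length hold the GC box and 36.8% the C/EBP site. The other shares were 7.25% for the NF-kB consensus, 17.8% for the CRE half-site, 6.75% for the AP-1 site and 12.4% for the TATA box. A match is a description of letters and no evidence of binding.

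Ptges, on chromosome 2, encodes the membrane-bound prostaglandin E synthase that is usually induced together with cyclooxygenase-2. Its counts were 575 and 668 under the WT label and 1554 and 1200 under the anti-Act1 label. In CPM these were 8.90 and 8.80 against 25.2 and 22.0. Every anti-Act1 value was thus higher than every WT value, and the WT libraries were nearly equal. Means were 8.85 ± 0.0694 CPM in WT and 23.6 ± 2.25 CPM in anti-Act1 (SD, n = 2 each). Its log2 difference was 1.41 (SE 0.09, 95% interval 1.23 to 1.60, edgeR adjusted p = 2.1e-17), rank 111 of 12494 from the largest rise. It stayed between 1.10 and 1.51 under the 12 alternative settings and was called in each.

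Ptgs2, on chromosome 1, encodes cyclooxygenase-2, the isoform that inflammatory stimuli induce. Its counts were 1093 and 1419 in WT and 2252 and 1823 in anti-Act1. Its CPM were 16.9 and 18.7 in WT and 36.5 and 33.4 in anti-Act1, without overlap. The rise was 1.96-fold, a log2 difference of 0.97 (SE 0.07, 95% interval 0.82 to 1.12, edgeR adjusted p = 1.26e-14). It ranked 289 of 12494 from the largest rise, ranged from 0.80 to 1.05 over the 12 alternatives and was called in each.

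Ptgs1, on chromosome 2, encodes cyclooxygenase-1, the isoform that most cells hold at a steady level. It moved the other way. Counts were 1202 and 1387 in WT and 744 and 689 in anti-Act1, and CPM were 18.6 and 18.3 against 12.1 and 12.6. The groups did not overlap and each was tight, with means of 18.4 ± 0.233 CPM and 12.3 ± 0.403 CPM (SD, n = 2 each). Ptgs1 fell by 0.58 on the log2 scale (SE 0.09, 95% interval of the log2 difference -0.76 to -0.40, edgeR adjusted p = 9.48e-07), rank 446 from the largest fall. The log2 fold change lay between -0.61 and -0.49 over the 12 alternatives, and each called it. Ptgs1 is also a platelet gene, and the 6 megakaryocyte and platelet markers summed to 4.36 and 5.19 CPM in WT and to 2.45 and 2.78 CPM in anti-Act1. Of those 6 markers 3 were tested, Ppbp was lower and none was at 0 in every library, and their part in the Ptgs1 result was not tested.

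Set against each other per gene length, the cyclooxygenases changed places. In FPKM, the deposited counts per gene length and library total, the ratio of Ptgs2 to Ptgs1 was 0.744 and 0.837 in WT and 2.48 and 2.17 in anti-Act1. Ptgs1 was thus the more abundant isoform per length in both WT libraries and Ptgs2 in both anti-Act1 libraries. The log2 ratio differed by 1.55 between the groups, with an exact two-sided permutation p of 0.333, the smallest that 2 against 2 samples can give.

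The prostaglandin E synthases showed a like contrast without changing places. Ptges2 encodes another membrane-associated prostaglandin E synthase, generally held to be constitutive. It had 17.4 and 13.8 CPM in WT and 16.4 and 16.5 CPM in anti-Act1, so both anti-Act1 values lay between the WT values. Its log2 difference was 0.08 (95% interval -0.11 to 0.26, edgeR adjusted p = 0.636). The ratio of Ptges to Ptges2 in FPKM was 0.273 and 0.341 in WT and 0.823 and 0.713 in anti-Act1, so Ptges2 remained the more abundant of the pair in every library. The log2 ratio differed by 1.33 (exact permutation p = 0.333, again the smallest possible).

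**Figure D2:**
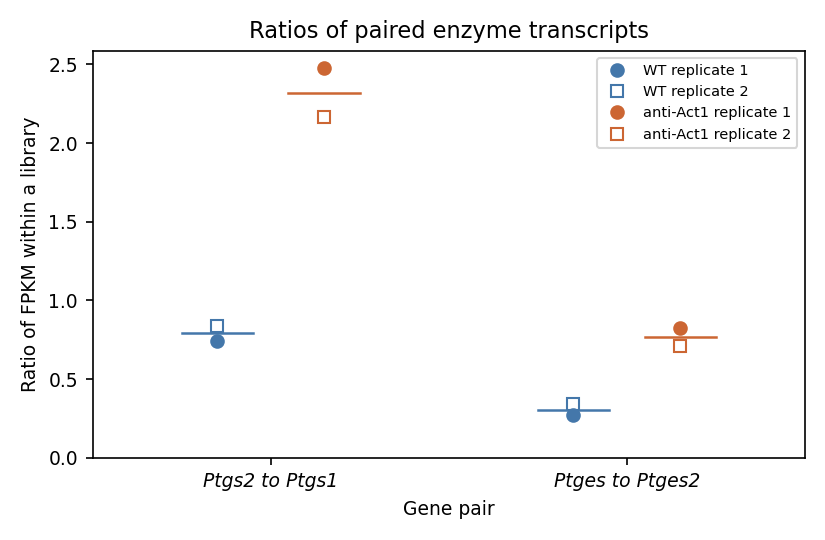
Ratio of FPKM within each library (vertical axis, linear from 0) for Ptgs2 to Ptgs1 and for Ptges to Ptges2; points are libraries and bars group means of 2. The Ptgs2 to Ptgs1 ratio is under 1 in both WT libraries and over 2 in both anti-Act1 libraries, and the Ptges to Ptges2 ratio is under 1 in all 4.

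Pla2g4a, on chromosome 1, encodes cytosolic phospholipase A2 alpha, the enzyme that frees arachidonate on calcium signals. Its CPM were 28.6 and 30.1 in WT and 36.0 and 32.8 in anti-Act1, higher in both anti-Act1 libraries but with little room between the groups. It rose by a log2 difference of 0.23 (SE 0.07, 95% interval 0.09 to 0.37, edgeR adjusted p = 0.012). The call was lost without WT replicate 1 (edgeR adjusted p = 0.072), without anti-Act1 replicate 1 (edgeR adjusted p = 0.266) and with limma on log2(FPKM + 1) or log2(FPKM + 0.1) (adjusted p = 0.0738 and 0.0733).

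Of the 3 genes of the leukotriene branch none rose. Alox5ap, on chromosome 5, encodes FLAP, the membrane protein that hands arachidonate to 5-lipoxygenase, and was by far the most abundant of the 10 transcripts. It had 14157 and 15315 counts in WT and 11392 and 10284 in anti-Act1, or 219 and 202 against 184 and 188 CPM. Both anti-Act1 values were below both WT values, by a margin smaller than the gap between the WT libraries. Alox5ap fell by 0.17 on the log2 scale (SE 0.05, 95% interval of the log2 difference -0.28 to -0.07, edgeR adjusted p = 0.0121). The call was lost without WT replicate 1 (edgeR adjusted p = 0.163) and without anti-Act1 replicate 1 or 2 (edgeR adjusted p = 0.157 and 0.07).

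Alox5 encodes 5-lipoxygenase, the enzyme that FLAP serves, and was scarce: 73 and 50 counts in WT and 32 and 30 in anti-Act1. Its CPM were 1.13 and 0.659 in WT and 0.518 and 0.549 in anti-Act1. The groups did not overlap, but WT replicate 1 stood well above the other 3 libraries. The log2 fold change was -0.73 with a wide 95% interval, -1.51 to 0.05 (edgeR adjusted p = 0.189), and a difference was not shown at this depth. Leaving out WT replicate 1 gave -0.30 and leaving out WT replicate 2 gave -1.08. Alox5 is also a neutrophil and mast cell gene. The 8 neutrophil markers summed to 526.6 and 540.2 CPM in WT and 548.8 and 531.4 CPM in anti-Act1, mostly from Mmp8, with S100a8 higher, S100a9, Retnlg, Ngp and Ltf lower among the 7 tested, and none at 0 in every library. The 8 mast cell and basophil markers summed to 0.325 and 0.329 CPM in WT and 0.0486 and 0.0916 CPM in anti-Act1, with 4 of them at 0 in every library. The part of such cells in the Alox5 values was not tested.

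Ltc4s encodes leukotriene C4 synthase, which joins glutathione to leukotriene A4. It was at 2.76 and 2.70 CPM in WT and 2.30 and 3.64 CPM in anti-Act1. The anti-Act1 libraries lay on either side of the WT libraries, and the log2 fold change of 0.12 had a 95% interval of -0.28 to 0.51 (edgeR adjusted p = 0.744). Its sign turned to -0.24 without anti-Act1 replicate 2. An antisense transcript, Gm26542, shares 268 of the 1014 exon bases of Ltc4s, and their reads cannot be separated because the counting is not stated to have used strand.

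Neither of the prostaglandin E2 receptors that raise cyclic AMP was called. Ptger2 encodes EP2 and was at 39.8 and 40.7 CPM in WT and 37.0 and 44.3 CPM in anti-Act1, the WT values lying inside the anti-Act1 range. Its log2 difference was 0.01 (95% interval -0.13 to 0.15, edgeR adjusted p = 0.931). Ptger4 encodes EP4 and was at 5.51 and 6.22 CPM in WT and 6.40 and 6.01 CPM in anti-Act1, with overlap. Its log2 difference was 0.08 (95% interval -0.19 to 0.35, edgeR adjusted p = 0.741). These intervals leave out a log2 difference as large as that of Ptgs2 or Ptges. The ratio of Ptger2 to Ptger4 in FPKM was 8.17 and 7.39 in WT and 6.54 and 8.33 in anti-Act1, so EP2 was the more abundant of this pair per length in every library. Ptger4 shares 82 exon bases with Ttc33 and 1015 with the pseudogene Gm15937, both on the opposite strand. Smaller stretches lie under transcripts of the opposite strand in Ptgs1 (148 exon bases), Alox5ap (189) and Ptger2 (246 with Gm17173 and 144 with Gm49364).

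**Figure D3:**
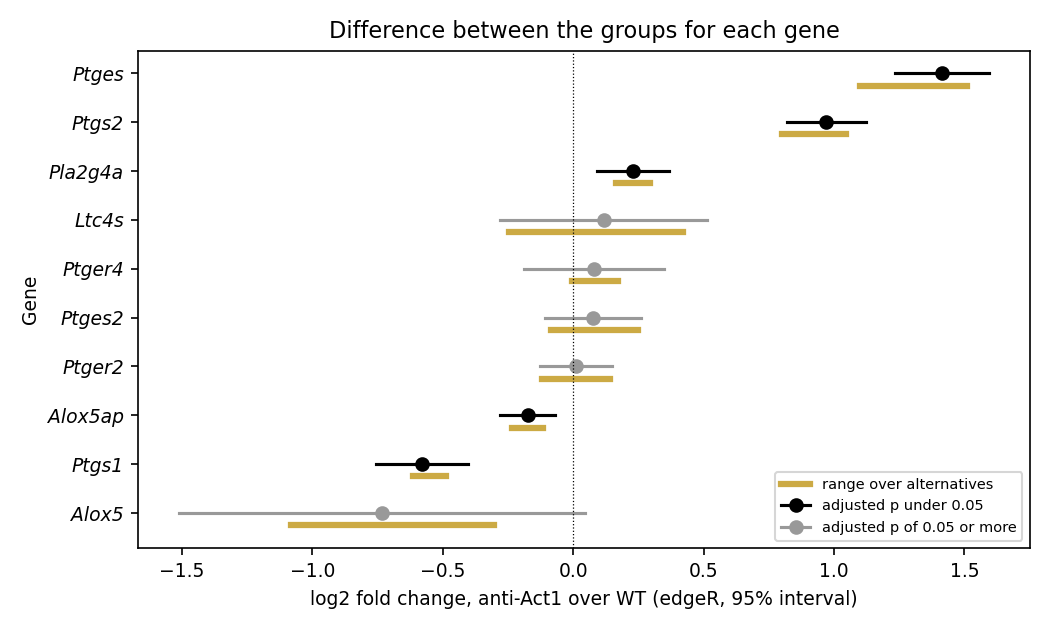
log2 fold change of anti-Act1 over WT for each gene (edgeR), with 95% intervals as thin lines and the range over the alternative settings as thick bars; black points have an adjusted p under 0.05 and grey points do not. Ptges (1.41), Ptgs2 (0.97) and Ptgs1 (-0.58) lie far from 0 over the whole range, whereas the bars of Ltc4s, Ptger4, Ptges2 and Ptger2 cross 0.

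Levels per gene length ordered the 10 genes over a wide range. In WT the mean FPKM (n = 2) was 217 for Alox5ap, 13.9 for Ptger2, 10.4 for Pla2g4a, 8.08 for Ptges2, 5.10 for Ptgs1, 4.55 for Ltc4s, 4.03 for Ptgs2, 2.45 for Ptges, 1.80 for Ptger4 and 0.319 for Alox5. No neighbours in that order overlapped between the libraries. In anti-Act1 the order was Alox5ap at 189 FPKM, Ptger2 at 13.8, Pla2g4a at 11.9, Ptges2 at 8.35, Ptgs2 at 7.76, Ptges at 6.41, Ltc4s at 4.86, Ptgs1 at 3.35, Ptger4 at 1.87 and Alox5 at 0.187. Ptgs2 and Ptges therefore both stood above Ltc4s and Ptgs1 there, and below them in WT. Ptger2 and Pla2g4a were hardly separated in anti-Act1, their nearest libraries lying at 12.7 and 12.6 FPKM, and neither were Ptges and Ltc4s, at 5.94 and 5.93. FLAP and its enzyme were far apart, with an Alox5ap to Alox5 ratio of 560 and 884.5 in WT and 1028 and 989.9 in anti-Act1.

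Around these 10 genes, 75 other listed genes of the pathway and of its cyclic AMP response were grouped by role into 7 lists, and 54 of them were tested. Of the 54, 14 rose and 11 fell, against the 10.9% and 9.76% of all genes given above, and their median log2 fold change was 0.09. Each list held genes without a call, and the leukotriene receptors held no call at all.

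Among 21 genes of arachidonate release and reacylation, 17 were tested, 6 rose and 3 fell, with a median log2 fold change of 0.10. The secreted phospholipases Pla2g5 and Pla2g2e had the largest rises of the list. Pla2g5 had 130 and 139 counts in WT and 208 and 167 in anti-Act1 (log2 difference 0.74, edgeR adjusted p = 0.00423; adjusted p = 0.053 without anti-Act1 replicate 1). Pla2g2e had 154 and 158 counts against 235 and 196 (0.73, edgeR adjusted p = 0.00244). Pla2g7, the secreted phospholipase that breaks down platelet-activating factor, was the most abundant gene of the list at 1226 and 1249 CPM in WT and 1500 and 1397 CPM in anti-Act1, and rose by a log2 difference of 0.23 (edgeR adjusted p = 0.000546). Mgll, which frees arachidonate from an endocannabinoid ester, rose by 0.21 (edgeR adjusted p = 0.0121), a call lost with limma on log2(FPKM + 1) (adjusted p = 0.0503) and without any 1 of WT replicate 2 or anti-Act1 replicates 1 and 2 (edgeR adjusted p = 0.0526, 0.102 and 0.0789). The lysosomal phospholipase gene Pla2g15 fell by 0.37 on the log2 scale (172.5 and 173.6 CPM against 132.8 and 135.5, edgeR adjusted p = 2.21e-07). Fads1, a desaturase that makes arachidonic acid, fell by 0.31 (edgeR adjusted p = 0.000229) and Daglb, a diacylglycerol lipase, by 0.24 (edgeR adjusted p = 0.000478). Daglb shares 2309 exon bases with Rac1 on the opposite strand, so its value is uncertain. Of the other named list genes, Pla2g7 (319 exon bases), Mgll (167) and Tbxas1 (144) share smaller stretches with opposite-strand transcripts. Cyp4f18 shares 181 with Zfp961 on the opposite strand. Dpep2 shares 474 with Gm45752 and 150 with Dus2 on the opposite strand, and 131 with Gm22972 on its own.

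The other prostanoid synthases split, with 1 of the 6 tested rising and 2 falling. Hpgds, the haematopoietic prostaglandin D synthase, had 129.5 and 138.3 CPM in WT and 91.8 and 86.1 CPM in anti-Act1. The groups stood clearly apart, and Hpgds fell by 0.59 on the log2 scale (SE 0.05, edgeR adjusted p = 4.66e-12), with every alternative on the same side. Tbxas1, the thromboxane synthase, was at 85.7 and 81.9 CPM in WT and 71.3 and 75.2 CPM in anti-Act1 and fell by 0.19 (edgeR adjusted p = 0.00922), a call lost without WT replicate 1 (edgeR adjusted p = 0.0522) and without anti-Act1 replicate 1 (edgeR adjusted p = 0.219). Platelets also express Tbxas1 and mast cells Hpgds. The marker sums of both cell types given above were smaller in anti-Act1, although no mast cell marker had enough counts to be tested, and their part in these results was not tested. Cbr1, a carbonyl reductase that acts on prostaglandin E2, rose by 0.23 (edgeR adjusted p = 0.00545; adjusted p = 0.0561 without anti-Act1 replicate 2). Akr1b3, an aldose reductase with prostaglandin F synthase activity and the highest mean FPKM of the list over the 4 libraries, had a log2 difference of -0.09 (95% interval -0.21 to 0.03, edgeR adjusted p = 0.315).

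Of 7 other prostanoid receptors, 2 had enough counts to be tested. Ptgir encodes the prostacyclin receptor, which like EP2 raises cyclic AMP. It had 788 and 1000 counts in WT and 1326 and 1151 in anti-Act1, or 12.2 and 13.2 against 21.5 and 21.1 CPM. It rose without overlap by a log2 difference of 0.74 (SE 0.08, 95% interval 0.57 to 0.91, edgeR adjusted p = 1.43e-09), in contrast to Ptger2 and Ptger4 above, though the difference between receptors was not tested. The other tested receptor gene was not called, and its values are not reported here. The receptor genes Ptger3, Ptgdr, Ptgdr2, Ptgfr and Tbxa2r had at most 10 counts in any library.

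In prostaglandin transport and breakdown, 5 of 6 genes were tested, 1 rose and 1 fell. Hpgd encodes the dehydrogenase that inactivates prostaglandin E2. It was low, with 122 and 184 counts in WT and 51 and 30 in anti-Act1, and 1.89 and 2.42 CPM against 0.826 and 0.549. The groups did not overlap, and Hpgd fell by 1.64 on the log2 scale (SE 0.28, 95% interval of the log2 difference -2.21 to -1.07, edgeR adjusted p = 1.17e-05). On log2(FPKM + 1), which compresses low genes, the log2 fold change was -0.70. Ptgr1, a reductase of the next step that also acts on leukotriene B4, had 33.6 and 30.4 CPM in WT and 44.3 and 49.0 CPM in anti-Act1 and rose by a log2 difference of 0.54 (edgeR adjusted p = 1.24e-08). Hpgd and Ptgr1, which act one after the other, thus moved in opposite directions.

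Beyond Alox5, Alox5ap and Ltc4s, 10 of 16 leukotriene and lipoxygenase enzyme genes were tested, 3 rose and 2 fell, and the median log2 fold change was -0.20. Mgst2, a microsomal glutathione transferase that can also make leukotriene C4, rose by 0.46 (edgeR adjusted p = 0.00117), and Abcc1, the exporter of leukotriene C4, by 0.31 (143.2 and 142.8 CPM against 170.0 and 184.3, edgeR adjusted p = 1.1e-05). Mgst1 rose by 0.16 (edgeR adjusted p = 0.0249) and lost its call in 6 of the 12 alternatives, with adjusted p between 0.0722 and 0.23. Dpep2, a dipeptidase that converts leukotriene D4 to E4, fell by 0.27 (380.4 and 361.9 CPM against 301.3 and 313.1, edgeR adjusted p = 4.88e-05). Cyp4f18, which oxidises leukotriene B4, fell by 0.29 (edgeR adjusted p = 0.00179), a call lost without WT replicate 1 (edgeR adjusted p = 0.0892) and without anti-Act1 replicate 1 (edgeR adjusted p = 0.0884). None of the 3 leukotriene receptors tested, Cysltr1, Cysltr2 and Ltb4r1, was called. Cysltr1 was the most abundant of them, at 62.3 and 64.2 CPM in WT and 62.2 and 59.0 CPM in anti-Act1 (log2 difference -0.06, 95% interval -0.18 to 0.06, edgeR adjusted p = 0.522).

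The genes listed as inducible by cyclic AMP downstream of EP2 and EP4 did not move one way. Neither cyclic AMP nor signalling by EP2 and EP4 was measured in these libraries. Of 12 listed, 11 were tested, 2 rose and 3 fell, with a median log2 fold change of 0.09. Pde4b, a phosphodiesterase that degrades cyclic AMP, rose by 0.36 (77.2 and 75.5 CPM against 94.4 and 101.8, edgeR adjusted p = 1.74e-06), and the clock gene Per1 by 0.28 (edgeR adjusted p = 0.000556). The nuclear receptor genes Nr4a1 and Nr4a2, which respond early to many stimuli, fell. Nr4a1 was at 14.6 and 13.0 CPM in WT and 7.82 and 8.20 CPM in anti-Act1, lower by 0.79 on the log2 scale (log2 difference -0.79, edgeR adjusted p = 6.55e-08). Nr4a2 was at 4.52 and 4.82 CPM against 2.06 and 2.82 (log2 difference -0.94, edgeR adjusted p = 3.7e-05). The kinase gene Sik1 fell by 0.26 (edgeR adjusted p = 0.00085). Fosl2, the most abundant of the list by FPKM, had a log2 difference of 0.09 (95% interval -0.01 to 0.19, edgeR adjusted p = 0.209).

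**Figure D4:**
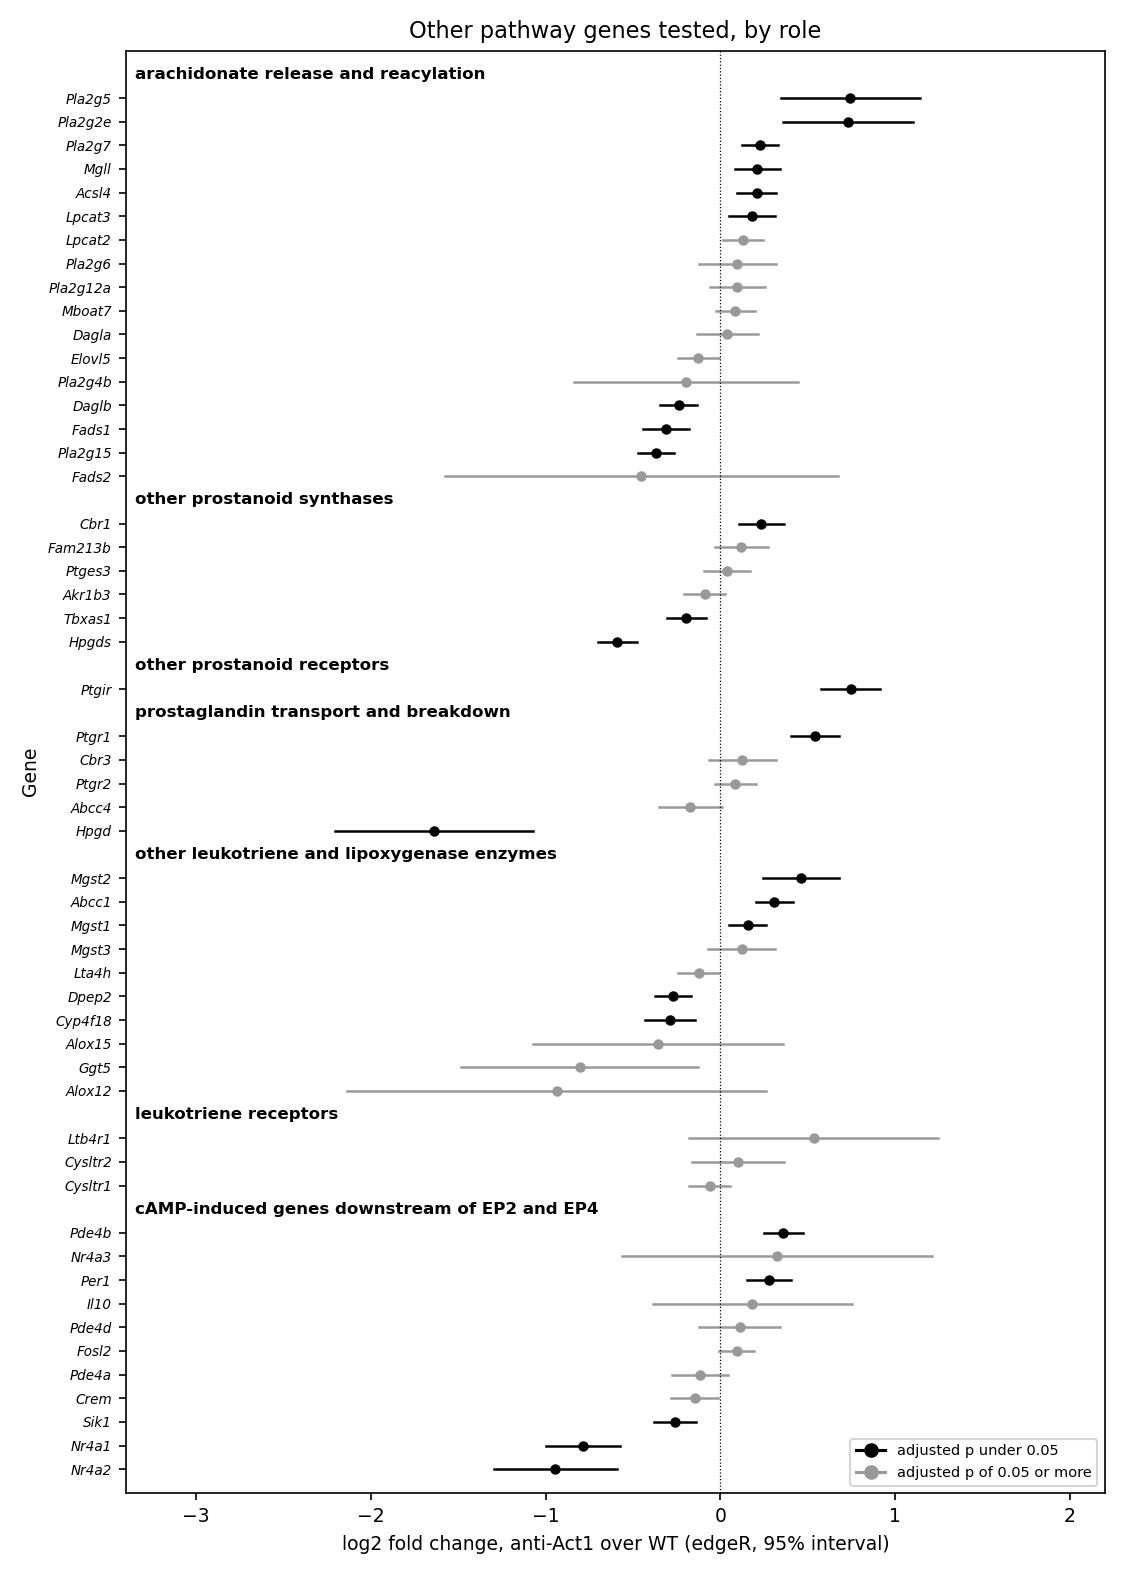
log2 fold change of anti-Act1 over WT (edgeR, with 95% intervals) for 53 of the 54 tested genes of the 7 lists, grouped by role; black points have an adjusted p under 0.05. Hpgd (-1.64), Nr4a2 (-0.94), Nr4a1 (-0.79) and Hpgds (-0.59) lie farthest to the left among the called genes, and Ptgir, Pla2g5 and Pla2g2e farthest to the right, at 0.73 to 0.74.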

How the data were processed

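RNA of macrophages in 4 libraries was sequenced as paired reads. According to its methods, the study filtered the reads and aligned them with TopHat and Bowtie, and the submitters' processing notes name Bowtie 0.12.2, HTSeq 0.6.1 and the builds mm8 and mm10 with no role. The annotation and strand setting used in counting are not given in the sources used here. The authors deposited whole read counts per gene, not normalized. They also deposited FPKM, which equal those counts divided by gene length and library total. Of 21878 genes, 6383 were at 0 in every library.

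The counts of all 4 libraries were modelled on condition alone in edgeR 4.0.16 under R 4.3.3, after filterByExpr and TMM scaling. The test was the quasi-likelihood F test, two-sided, with Benjamini-Hochberg adjustment over 12494 genes and a threshold of 0.05. CPM are counts scaled to the TMM-adjusted library total. The standard error is the size of the unshrunken log2 fold change divided by the square root of F. With a depth of 55435063 to 75062945 counts, a count of 0 allows up to 3 counts, or 0.0395 to 0.0549 CPM, for counting error only. With 2 libraries a group, p-values measure the spread between these samples. In edgeR that spread is estimated partly from the other genes tested, so a p-value does not rest on the gene's own replicates alone. An exact permutation test cannot go below 0.333. Alternatives were DESeq2 1.42.0, limma 3.58.1 on log2(FPKM + 1) and log2(FPKM + 0.1) with at least 1 FPKM in 2 libraries, no composition normalization, other count filters, a replicate block and leaving out each library. The code was tested on simulated data.

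The members and lists were chosen with earlier results of these data known. Named are the 10 genes, Traf3ip2 and, from each list, the called genes with a mean of at least 1 CPM (at most the 4 largest changes each way) and the gene with the highest mean FPKM. Values of 1 list gene are not reported here. Marker genes are named besides. Promoter windows came from RefSeq (GRCm38.p6), where 9 of the 10 genes had a window. The starts of the Ptger2 and Ptges2 windows did not match a transcript start. Overlapping genes came from GENCODE M21, whose build was not checked against the counting.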

Additional observations from a re-analysis of the deposited data

How the results depend on the processing

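Of the 37 named genes 28 were called, and 20 of these stayed on the same side of the threshold in each of the 12 alternatives in which they were tested; none of the 28 changed sign. Ptges, Ptgs2 and Ptgs1 were among the 20. Alox5 and Nr4a2 fell under the FPKM minimum and were not tested with limma. Calls over all genes numbered 2586, 1986 with DESeq2, and 1671 to 2543 when each library in turn was left out. Rises numbered 1366, 910 with limma on log2(FPKM + 0.1) and 930 to 1335 with a library left out; falls numbered 1220 and 741 to 1208. Rises outnumbered falls (52.8% of calls), but not without composition normalization (1105 rises and 1411 falls, 43.9%) or with limma (914 and 1060 with 1 added, 910 and 1057 with 0.1 added). Of the 10 pathway genes 5 were called, and 3 to 5 with a library left out, 3 without WT replicate 1 or anti-Act1 replicate 1. Deviations of libraries with the same replicate number were nearly uncorrelated (r = -0.033 across 12494 genes). With 2 libraries a group this is a single value, and it cannot show whether such libraries were prepared together. A replicate block gave 2406 calls, 5 of them among the 10 genes. With 1 library left in a group, that library is assumed to vary like the others.

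Signs turned only among genes without a call. Without composition normalization the log2 fold change was -0.0137 for Ptger2. With limma on log2(FPKM + 1) and log2(FPKM + 0.1) it was -0.0157 and -0.017 for Ptger2. With a library left out, values ranged from -0.12 to 0.14 for Ptger2, -0.085 to 0.25 for Ptges2, -0.0044 to 0.17 for Ptger4 and -0.24 to 0.42 for Ltc4s. The cause was not tested. Alox5 had the lowest counts of the 10 genes, 30 to 73 a library, and the counting error and the spread between its WT libraries were not separated.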
